A study of Homo sapiens with 9 samples.

Results

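The SOCS family comprises 8 genes, SOCS1 to SOCS7 and CISH, and all 8 were found by symbol among the 30956 genes of the deposited table. Their mRNAs were measured in RNA recovered with the CCR4-NOT complex and in input RNA of HEK293T, an established line from human embryonic kidney. The complex was captured by RNA immunoprecipitation (RIP) through V5-tagged CNOT7, a deadenylase subunit with a substitution that impairs its nuclease activity, and the RNA was sequenced. The labels list 3 RIP libraries and 6 input libraries, of which 3 came from cells treated with doxycycline (3 µg/mL, 24 h) and 3 from untreated cells, all made from RNA labelled as cytoplasmic. The table gives 3 RIP and 3 input libraries, and the names of the input columns do not show whether these cells had received doxycycline. The doxycycline state of the RIP cells, the promoter behind the tagged protein and whether the cells were 1 clone are also unknown here.

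SOCS proteins are feedback inhibitors of cytokine signalling. A cytokine bound to its receptor activates JAK kinases, which phosphorylate STAT factors, and STATs then switch on genes that include several SOCS genes. Each SOCS protein holds a phosphotyrosine-binding SH2 domain and a SOCS box, which recruits elongins and a cullin ligase to mark bound partners for degradation. CISH, SOCS1, SOCS2 and SOCS3 are the classical cytokine-induced members, while SOCS4 to SOCS7 are linked more to growth factor receptors. CCR4-NOT shortens poly(A) tails, a step that commonly begins the decay of an mRNA.

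The 6 libraries held 37140622 to 40764899 reads in genes. RIP replicate 2 had no read in 14786 genes, against 6720 and 6398 in the other RIP libraries and 10056 to 12079 in the inputs. Mitochondrial genes took 0.931% to 1.12% of the reads in RIP and 18.6% to 26.6% in input, and the part of this difference in the folds given here was not tested beyond the change of scaling described with the pathway lists. All 12 HEK293 marker genes had input means of at least 100 normalized counts (gene counts divided by 1 size factor per library). Of 9 markers of other cell types, 7 were below 5 or not listed, whereas COL1A1, a fibroblast marker, had an input mean of 469. The summed counts of the 5 such markers that were listed overlapped between RIP (383 to 610) and input (416 to 615). COL1A1 made up most of the sum in every library. An immunoprecipitate of untagged cells was not analysed here, so recovery that does not depend on the tag was not subtracted. In bulk libraries, more RNA per cell and more cells with the RNA cannot be told apart.

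STAT factors bind a short palindrome, and CISH is the textbook example of a gene with such elements grouped at its promoter. The motif TTCNNNGAA, which reads the same on both strands, was searched in the 250 bases before each start site in RefSeq promoter sequences (GRCh38.p14). The table held 5 of the 8 members (SOCS1, SOCS3, SOCS4, SOCS6 and CISH) with 6 start sites. CISH had 4 matches in 2 pairs, shown because this member is known for its STAT elements, with the matches in capitals.
CISH distal pair: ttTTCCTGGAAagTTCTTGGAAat
CISH proximal pair: ggTTCTAGGAAgacgctgcTTCCGGGAAgg
They lie at chr3:50611994-50612017 and chr3:50611876-50611905 on the minus strand, 243 to 220 and 131 to 102 bases before the annotated start of CISH. Both also lie inside the annotated span of MAPKAPK3. The start sites of SOCS1, SOCS3, SOCS4 and SOCS6 held 0 matches in this window. Of 35116 such windows 6.57% held at least 1 match, and 5 held 4 or more. A match in letters is a description, and binding was not measured in these cells.

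Every SOCS family mRNA was recovered with CCR4-NOT above its input level. All 8 members passed the test in the authors' deposited table (DESeq2, adjusted p under 0.05), 8 higher and 0 lower, where 20.6% of 20649 tested genes were higher and 19.9% lower. The authors' deposited table gave them a median log2 fold of 1.52, against -0.079 for all tested genes, and 7 of the 8 were at least 2-fold higher. For all 8, every RIP library lay above every input library, which held for 22.5% of tested genes. The quasi-likelihood test of edgeR on recovered whole reads also put all 8 higher at an adjusted p under 0.05, with 22.0% of its 16811 tested genes higher.

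**Figure D1:**
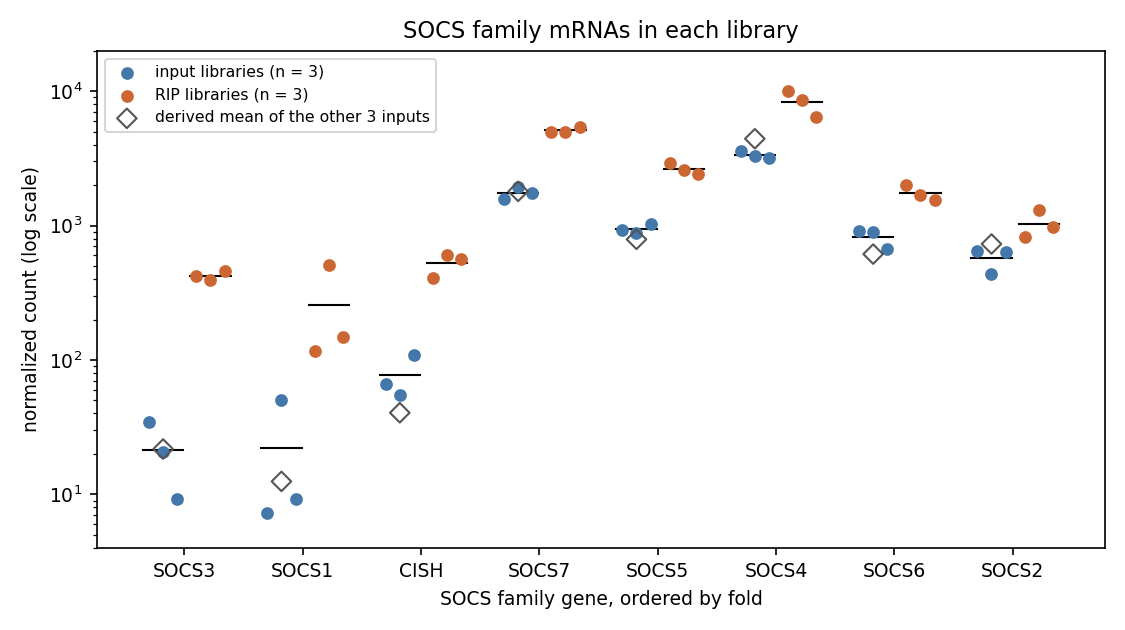
Normalized counts (log scale) of each SOCS family gene in 3 input libraries (blue) and 3 RIP libraries (orange), with group means as bars and the derived mean of the other 3 inputs as open diamonds, which have no spread. The RIP points lie above the input points for all 8 genes, with the narrowest gap for SOCS2 and the widest scatter for SOCS1.

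SOCS3 (chr17:78356778-78360925), which blocks JAK activity at receptors of the IL-6 type, had the highest fold of the family. It had 423, 393 and 458 normalized counts in the RIP libraries and 34.4, 20.6 and 9.30 in the inputs. The lowest RIP library stood 11.4-fold above the highest input. The RIP libraries lay close together, at 425 ± 32.6 (SD, n = 3), while the inputs, counted from 33, 18 and 8 reads, spread 3.70-fold between lowest and highest. The authors' deposited table put its log2 fold at 4.30 with an SE of 0.44 (DESeq2, adjusted p = 9.53e-21), and 285 of 20649 tested genes had a higher one. With edgeR the log2 fold was 4.29 (adjusted p = 2.58e-05). SOCS3-DT, a divergent transcript that overlaps the start of SOCS3, averaged 1.60 normalized counts in RIP and 4.95 in input and was not tested.

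SOCS1 (chr16:11254417-11256204), which binds and inhibits JAK kinases directly, had a high fold with the largest SE of the family. Its RIP libraries held 118, 505 and 148 normalized counts and its inputs 7.31, 50.2 and 9.30, from 7, 44 and 8 reads. RIP replicate 2 and input library 2 each stood above the other 2 libraries of their group, and the groups still did not overlap. The means were 257 ± 216 in RIP and 22.3 ± 24.2 in input (SD, n = 3 each). The authors' deposited table put the log2 fold at 3.53 with an SE of 1.35 (DESeq2, adjusted p = 0.0238) and the shrunken log2 fold at 1.76. On the recovered reads of the 6 listed libraries alone it was 3.52 (DESeq2, adjusted p = 1.2e-05), so the p-value depended on the fit. The edgeR fold was 3.51 on the log2 scale (adjusted p = 0.00506), 2.60 without RIP replicate 2 and 4.90 without input library 2.

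CISH (chr3:50606489-50611774), which occupies STAT5 docking sites on receptors, followed in the order of folds. It had 406, 604 and 564 normalized counts in RIP and 66.8, 54.8 and 109 in the inputs. The lowest RIP value was 3.71-fold above the highest input value, and the means were 524 ± 105 and 77.0 ± 28.6 (SD, n = 3 each). Its log2 fold was 2.77 with an SE of 0.38 as given in the authors' deposited table (DESeq2, adjusted p = 3.11e-12). MAPKAPK3, a stress kinase gene whose annotated span overlaps the start of CISH, was lower in RIP, at -1.32 on the log2 scale of the authors' deposited table (DESeq2, adjusted p = 6.35e-18).

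SOCS2 (chr12:93569969-93626236), which limits growth hormone signalling, had the lowest fold of the family. Its RIP libraries held 816, 1307 and 984 normalized counts, and the inputs 645, 439 and 636. The lowest RIP library was 1.26-fold above the highest input, the narrowest gap among the members. The authors' deposited table put the log2 fold at 0.85 with an SE of 0.23 (DESeq2, adjusted p = 0.000913). In edgeR it was 0.85 (adjusted p = 0.00859), and without input library 2, the lowest of the inputs, it was 0.66 and not called (adjusted p = 0.0606). SOCS2-AS1, an antisense RNA that overlaps SOCS2, had -0.85 and was not called in the authors' deposited table (DESeq2, adjusted p = 0.0553). How the counting treated strand is unknown here, so reads of overlapping genes may not be told apart.

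SOCS4 to SOCS7, the members linked more to growth factor receptors, all had at least 667 normalized counts in every input library and folds in a narrow band. SOCS7 (chr17:38351844-38405593), which binds adaptor proteins such as NCK, had 4930, 5004 and 5425 normalized counts in RIP and 1571, 1941 and 1744 in the inputs. Its groups were tight and far apart, with coefficients of variation of 5.21% in RIP and 10.6% in input. The authors' deposited table put its log2 fold at 1.55 with an SE of 0.12 (DESeq2, adjusted p = 3.59e-37), the smallest SE of the family.

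SOCS5 (chr2:46698937-46763129), a regulator of EGF receptor and IL-4 signalling, had 2917, 2607 and 2421 normalized counts in RIP and 925, 877 and 1029 in the inputs. The lowest RIP library was 2.35-fold above the highest input. Its log2 fold was 1.49 with an SE of 0.15 as given in the authors' deposited table (DESeq2, adjusted p = 6.34e-22).

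SOCS4 (chr14:55027236-55049489), the closest relative of SOCS5, had 10024, 8565 and 6388 normalized counts in RIP and 3579, 3305 and 3159 in the inputs. The RIP libraries spread 1.57-fold and the inputs 1.13-fold, and the groups stayed apart by 1.78-fold at their nearest values. The authors' deposited table put the log2 fold at 1.31 with an SE of 0.16 (DESeq2, adjusted p = 1.36e-15).

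SOCS6 (chr18:70289045-70330199), which acts on receptor tyrosine kinases such as KIT, had 2003, 1676 and 1555 normalized counts in RIP and 904, 895 and 667 in the inputs. Its groups were 1.72-fold apart at their nearest values. Its log2 fold was 1.09 with an SE of 0.19 as given in the authors' deposited table (DESeq2, adjusted p = 4.63e-08). By that fold 83.8% of tested genes lay below SOCS6, against 90.3% below SOCS5 and 78.6% below SOCS2.

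The order of the folds was settled only in part. From SOCS3 through SOCS1 to CISH, neighbours in the authors' deposited table differed by 0.77 and 0.76 on the log2 scale, against combined SEs of 1.42 and 1.40. Both steps hold the large SE of SOCS1, so they do not show whether SOCS3 and CISH differ. SOCS3 stood at 4.30 with an SE of 0.44 and CISH at 2.77 with an SE of 0.38. From CISH to SOCS7 the step was 1.22, 3.07 times its combined SE of 0.40. Below that, SOCS7, SOCS5, SOCS4, SOCS6 and SOCS2 followed in steps of 0.058 to 0.23, each within its combined SE. Steps between neighbours do not show whether the ends of this run differ. SOCS7 stood at 1.55 with an SE of 0.12 and SOCS2 at 0.85 with an SE of 0.23. SOCS1, whose fold had the largest SE, lay above SOCS7 by 1.98 with a combined SE of 1.35, so it is not set apart from the lower members by its error. The folds come from the same 6 libraries, so these SEs are not independent of each other.

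**Figure D2:**
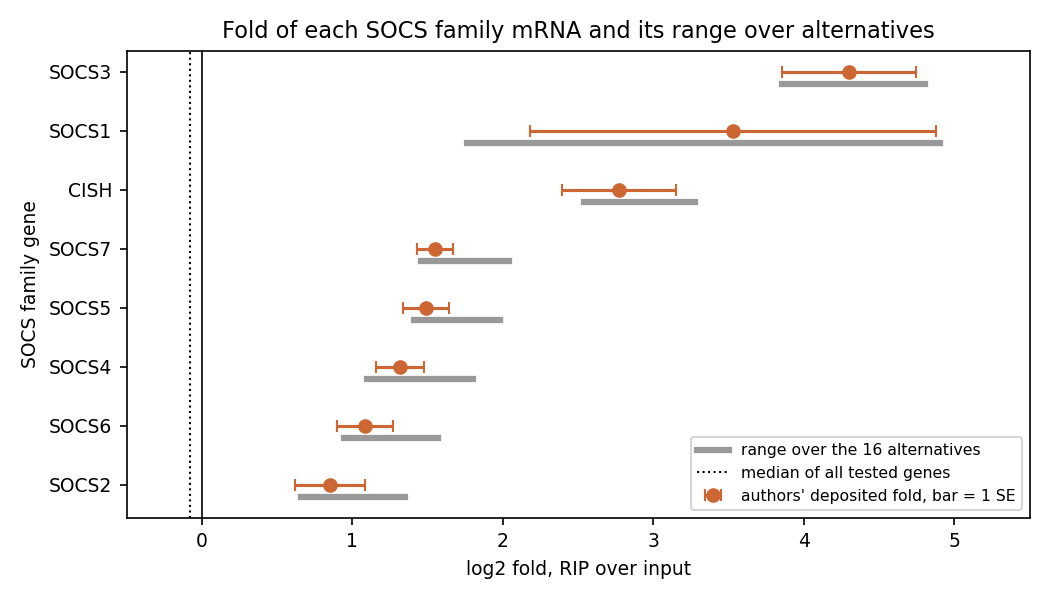
Log2 fold of RIP over input for each SOCS family gene in the authors' deposited table (orange points, bars of 1 SE), with the range over 16 alternative computations below each (grey) and the median of all tested genes (dotted). SOCS3, SOCS1 and CISH lie at 2.77 or above and the other 5 genes between 0.85 and 1.55, and no grey range reaches 0.

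SOCS3, SOCS1 and CISH had few input reads, so each member was set beside tested genes of like input. Of 4596 tested genes with an input mean of 10 to 100 normalized counts, 7.29% were higher in RIP, and the authors' deposited table gave a 90th percentile of 1.41 for their log2 fold. SOCS3, SOCS1 and CISH, the members in that range, had 4.30, 3.53 and 2.77 in it. Of 5218 genes from 100 to 1000, 33.1% were higher, with a 90th percentile of 1.36. SOCS5 lay above that value, and SOCS6 and SOCS2 below it. Of 6486 genes from 1000 to 10000, 30.5% were higher, with a 90th percentile of 0.96, which SOCS7 and SOCS4 both exceeded.

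**Figure D3:**
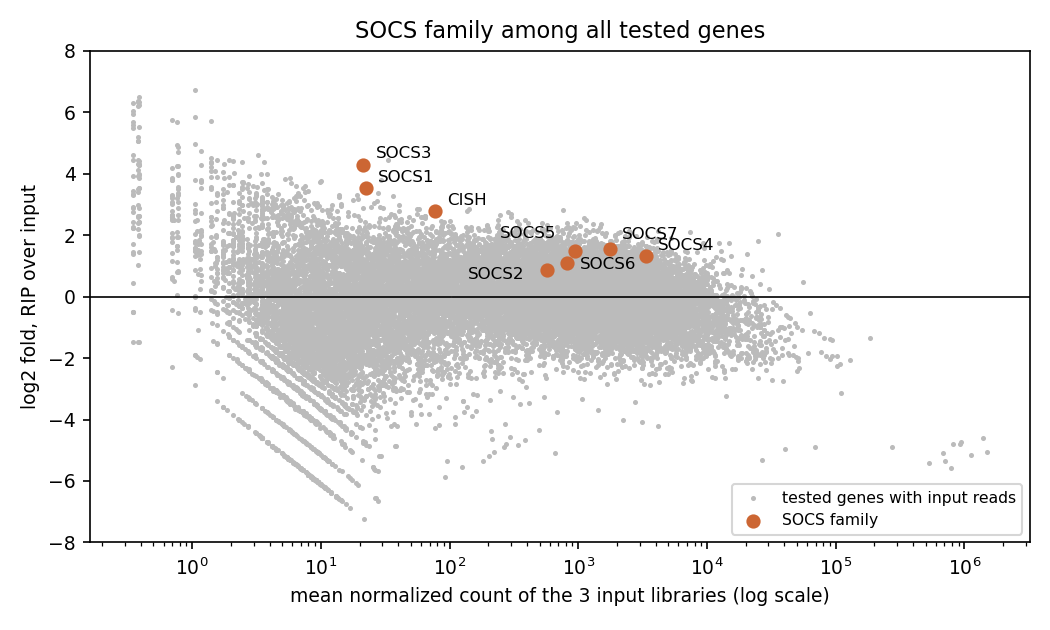
Log2 fold of RIP over input in the authors' deposited table against the mean normalized count of the 3 input libraries (log scale) for 20132 tested genes with input reads (grey) and the SOCS family (orange). SOCS3, SOCS1 and CISH have input means under 100 and folds above the 90th percentile of 1.41 at that level, and all other members lie above 0.

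The deposited mean over 9 libraries gave the mean of the 3 inputs that the table does not list, with no spread. These other inputs averaged 21.8 normalized counts of SOCS3 against 21.4 in the listed ones, and 1797 of SOCS7 against 1752. CISH and SOCS1 were lower in them, at 40.5 against 77.0 and 12.5 against 22.3. SOCS4 was higher in them, at 4429 against 3348, as was SOCS2, at 729 against 573. The RIP mean exceeded the mean of all 6 inputs for every member, by 0.67 for SOCS2 and 1.10 for SOCS4 up to 4.30 for SOCS3 on the log2 scale. These derived means have no replicate values and were not tested.

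Other genes of the pathway were taken from 8 lists, and 109 of 138 listed genes were tested. Of these 109, 37 were higher and 14 lower in the authors' deposited table (DESeq2, adjusted p under 0.05), with a median log2 fold of 0.20. These are 33.9% and 12.8%, beside 20.6% higher and 19.9% lower of all 20649 tested genes. The higher share of all genes was 33.1% at input means of 100 to 1000 and 30.5% at 1000 to 10000. Scaling to total counts in edgeR raised the median of all genes by 0.49 and gave 52 pathway genes higher and 5 lower, against 34 and 11 in edgeR with TMM scaling. All 8 SOCS members stayed higher under total-count scaling, where 36.0% of all 16811 tested genes were higher and 9.45% lower. Cytokine ligands had the highest list median: of 9 tested, 4 were higher and 0 lower, with a median of 2.50 from the authors' deposited table. That median was 2.34 with IL6, which had no read in the listed inputs, set at its bound. These 2 medians are the folds of IL15 and IL11, with input means of only 9.53 and 9.41 normalized counts. Neither was called (DESeq2, adjusted p = 0.0521 and 0.135), and 10 of the 19 listed ligands were not tested. The ligand median thus rests on genes with few input reads. The authors' deposited table gave log2 folds of 2.86, 2.59 and 1.48 for the IL-12 subunit IL12A, the IL-6-type cytokine LIF and the epithelial cytokine TSLP. LIF had more counts in the other inputs, at 259 normalized counts against 62.7, and its RIP mean exceeded that of all 6 inputs by 1.23 on the log2 scale.

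Receptors, kinases and STAT factors had list medians near that of all genes. Of 22 tested receptor subunits 5 (22.7%) were higher and 2 (9.09%) lower in the authors' deposited table, with a median of -0.014. The shares over all tested genes were 20.6% higher and 19.9% lower. In edgeR 4 of 19 receptor subunits were higher with TMM and 10 of 19 with total-count scaling, beside the 22.0% and 36.0% of all genes given above. The interferon lambda receptor IFNLR1 stood at 2.12 in the authors' deposited table, and IL13RA1 and the leptin receptor LEPR at -1.10 and -1.13. Of 4 JAK kinases 0 were higher and 2 lower in the authors' deposited table, JAK1 at -0.47 and TYK2 at -0.39. Under total-count scaling in edgeR these turned to 0.012 and 0.11, neither called, and JAK2, at 0.39 and not called in the authors' deposited table, was called higher at 0.87 (adjusted p = 0.0407). Of 6 tested STAT factors 0 were higher in the authors' deposited table, with a median of -0.24, and 0 were under total-count scaling in edgeR. STAT2 and STAT3, at -0.43 and -0.17 in the authors' deposited table, were not called (DESeq2, adjusted p = 0.0658 and 0.243).

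The list of ubiquitin ligase parts and cofactors linked to SOCS box proteins had the lowest list median. Of 9 genes 0 were higher and 5 (55.6%) lower in the authors' deposited table, with a median of -0.61. The shares over all tested genes were 20.6% higher and 19.9% lower. The elongin ELOB averaged 384 normalized counts in RIP against 1802 in input. The authors' deposited table put its log2 fold at -2.23 with an SE of 0.15 (DESeq2, adjusted p = 1.36e-46), and the ubiquitin-like modifier NEDD8 and the RING protein RBX1 at -1.33 and -0.91. In edgeR with total-count scaling ELOB and NEDD8 stayed lower at -1.73 and -0.82. RBX1, at -0.41, and the list's other genes were not called, which left 2 of 9 lower, beside 9.45% of all tested genes.

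Other SOCS box proteins and other inhibitors had more genes higher than lower. Of 22 tested SOCS box proteins outside the family, 11 (50%) were higher and 1 (4.55%) lower in the authors' deposited table, with a median of 0.44. The shares over all tested genes were 20.6% higher and 19.9% lower. ASB7, ASB6 and SPSB1, which recruit substrates to the same kind of ligase, stood at 1.67, 1.07 and 1.961 on the log2 scale of the authors' deposited table. Of 16 other inhibitors and adaptors 8 (50%) were higher and 2 (12.5%) lower in the authors' deposited table, with a median of 0.22. The authors' deposited table put the SUMO ligase PIAS1 and the adaptors SH2B3 and SH2B1 at 1.07, 0.67 and 0.77. SH2B1 had more counts in the other inputs, at 1716 normalized counts against 986, and its RIP mean of 1684 exceeded that of all 6 inputs by 0.32 on the log2 scale. In edgeR with total-count scaling 0 genes of either list were lower, with 12 of 19 SOCS box proteins and 11 of 16 inhibitors and adaptors higher. The shares over all genes under that scaling were 36.0% higher and 9.45% lower. The phosphatase PTPN6 had no read in the listed inputs and was at least 9.73-fold higher in RIP than a floor of 3 reads per input library.

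The list of known STAT target genes had the next highest median after the ligands. Of 21 tested, 9 (42.9%) were higher and 1 (4.76%) lower in the authors' deposited table, with a median of 0.95. The shares over all tested genes were 20.6% higher and 19.9% lower. The authors' deposited table put the survival factor MCL1 at 1.37 and the transcriptional repressor BCL6 at 1.99 on the log2 scale. VEGFA, a growth factor for blood vessels, was at 2.09 in the authors' deposited table, and its RIP mean exceeded that of all 6 inputs by 1.17. Whether STATs were active in these cells was not measured.

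**Figure D4:**
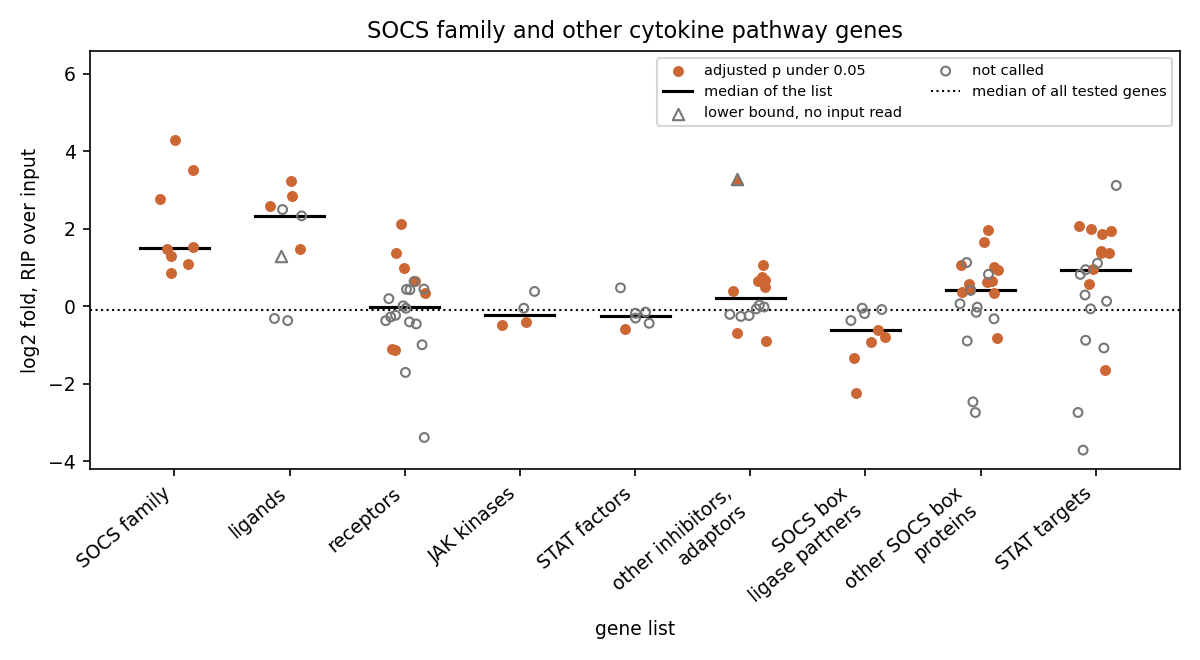
Log2 fold of RIP over input in the authors' deposited table for the SOCS family and 8 lists of cytokine pathway genes (filled, adjusted p under 0.05; open, not called; triangles, lower bounds of IL6 and PTPN6, which had no input read), with list medians as bars and the median of all tested genes dotted. All 8 SOCS points lie above 0, and no JAK, STAT or ligase partner gene is called higher here, although JAK2 was under total-count scaling in edgeR.

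The genes most like SOCS3 and SOCS4 were sought among 12401 tested genes with a mean of at least 100 normalized counts, by Pearson correlation of log2(normalized count + 1) over the 6 libraries. All points of such a correlation share the division into RIP and input. CEP68, TENT5C and LPIN2 were most like SOCS3, with correlations of 0.9998, 0.9995 and 0.9988. Their own folds were smaller than that of SOCS3, at 0.66, 1.25 and 0.81 on the log2 scale of the authors' deposited table. TMEM170A, RORA and CBLL1 were most like SOCS4, with correlations of 0.9994, 0.9991 and 0.9990, and stood at 0.79, 1.70 and 0.88 on the same scale of the authors' deposited table.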

How the data were processed

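Reads were handled with STAR, featureCounts and DESeq2 on GRCh38, per the submitters' processing notes, while versions, annotation and strand setting are unknown here. Each library's deposited values are a signal: gene counts divided by 1 size factor per library. All values (100%) were whole multiples of the lowest value above 0 in their column, within 0.01 of a read, which gave back whole reads. The log2 fold, SE, Wald score, p-value and adjusted p-value are the authors', per the file headers, and the processing notes name DESeq2. For 99.2% of 19960 genes the deposited log2 fold equalled the log2 ratio of the listed RIP and input means within 0.03.

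Genes with a deposited adjusted p (20649) counted as tested, at a threshold of 0.05. The members and gene lists were chosen with earlier results of these data known, so no p-value over a list is given. Named are all members, the 3 genes with the smallest p in each list, and the 3 genes most like the member with the largest fold and the member with the highest mean. PTPN6 and IL6, named for having no input read, and the overlapping genes were chosen after their values were seen. Some genes that this rule covers are not reported here. The floor of 3 reads was 2.24 to 3.49 normalized counts per library. Reads carried no molecular identifiers as far as the labels say, so floors cover counting error only. The labels do not state whether replicates were separate cultures, so a p-value may reflect technical spread alone.

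Alternatives used edgeR 4.0.16 (quasi-likelihood, TMM, filterByExpr), limma 3.58.1 on log2(value + 1) and DESeq2 1.42.0, checked on simulated data. In that simulation few genes changed, equally in both directions, and all genes had the same dispersion. It therefore does not check the scaling or the error rates in these libraries. On the recovered reads edgeR called 3695 genes higher and 3427 lower. Locations and promoters came from RefSeq tables of GRCh38.p14, matched by symbol.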

Additional observations from a re-analysis of the deposited data

How the results depend on the processing

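The count of SOCS members higher in RIP was 7 or 8 over 15 alternatives, and 0 were lower in each of them. It was 7 at an adjusted p under 0.01 in the authors' deposited table, where SOCS1 dropped out, and 7 without input library 2, where SOCS2 did. No member changed direction in any alternative. SOCS1 ranged from 1.76 (the authors' shrunken fold) to 4.90 on the log2 scale, SOCS3 from 3.85 to 4.80, CISH from 2.54 to 3.28 and SOCS2 from 0.66 to 1.35. Counts of pathway genes over the leave-one-out fits were 27 to 40 higher and 10 to 12 lower. In the same fits 16.3% to 22.0% of all tested genes were higher. In edgeR with total-count scaling 5 pathway genes were lower, against 11 in edgeR with TMM and 14 in the authors' deposited table. Against TMM, that scaling raised the median fold of all genes by 0.49, and of all called genes 79.2% were higher against 51.9%, with 1588 genes lower against 3427. Without RIP replicate 2 in DESeq2, an alternative chosen after seeing the data, SOCS1 had 2.60 and all 8 members were called. The fold over all 6 inputs, also chosen after seeing the data, left every member above 0. RIP and input columns share the numbers 1 to 3. Deviations from the group means correlated at 0.255, 0.0025 and 0.24 for the same-numbered pairs over 12370 genes. They correlated at -0.226 for RIP replicate 1 with input library 3 and at -0.265 for RIP replicate 3 with input library 1. Input library 2 was near 0 with every RIP replicate, at -0.029, 0.0025 and 0.026. Whether the numbers mark pairs was thus not settled, and the main test did not take them as pairs. With the replicate block in edgeR 8 members were higher and 0 lower, and 35 pathway genes were higher and 13 lower. SOCS1 had 3.74 with the block (edgeR, adjusted p = 0.000815) and 3.51 without it (adjusted p = 0.00506). Where a fit leaves out 1 library, the group is represented by the other 2. SOCS1 and SOCS3 rested on 7 to 44 reads in an input library.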
